A study of Mus musculus with 30 samples.

Results

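UB-NPs were given to mice on a high-fat diet in 2 studies, and the question here is where their effect on liver gene expression differed between the studies. For each gene the effect in obese mice (Uro over HFD) was set against the effect in mice dosed from the start of the diet (UB over MC), as the log2 fold change of the first minus that of the second. A level that is higher or lower throughout one study cancels in this difference. It uses 20 of the 30 libraries, the 5 of each of 4 groups. Uro mice were obese after 10 weeks of high-fat diet and then had 8 weeks of the diet with 60 mg/kg/day of UB-NPs, and HFD mice had the same course of diet with water. UB mice were normal at the start and had 10 weeks of high-fat diet with 60 mg/kg/day of UB-NPs, and MC mice had the diet with water for those 10 weeks. All 4 groups ate high-fat diet, all had daily oral gavage, and RNA came from liver tissue. The labels give neither the full name of UB-NPs nor the strain, sex or age of the mice, nor the hour at which livers were taken. The design names 10 mice in each group. Libraries are treated here as separate mice, a point the labels leave unsaid, and p-values measure only the spread between libraries if that is not so.

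A liver on high-fat diet takes up more fatty acid than it burns and stores the excess as triglyceride in lipid droplets. Fatty acids are burned in mitochondria and peroxisomes by enzymes that the nuclear receptor PPARA controls, or leave the liver in very low density lipoprotein. Type I interferon signals through STAT2 and IRF9, among others, to a group of antiviral genes. The circadian clock, in which CLOCK and BMAL1 drive the genes of their own repressors, times much of liver metabolism.

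The libraries differed in one respect that bears on every result. Transcripts of the 37 mitochondrial genes and of 21 nuclear copies of them took 14.1% to 21.6% of the counts in Uro libraries, against 59.1% to 82.3% in HFD libraries. In the prevention study they took 41.8% to 52.0% in UB libraries, against 38.6% to 69.1% in MC libraries. The share thus separated Uro from HFD completely, while UB and MC libraries overlapped. The mean difference was -47.4 percentage points for Uro minus HFD and -5.96 points for UB minus MC. Their difference of -41.4 points had p = 0.0108 in a two-sided exact permutation test within the studies. The null of that test is no effect in either study, so its p does not by itself show that the effects were unequal. Total counts per library were 17.05 M (mega) to 24.3 M, but counts left for all other genes were 15.6 to 19.7 M in Uro, 3.14 to 8.31 M in HFD, 8.54 to 11.04 M in UB and 5.27 to 11.9 M in MC libraries. HFD replicate 1 stood apart, with the highest share, 82.3%, and the fewest other counts, 3.14 M. With the share of each library added to the fit as a covariate, edgeR called 0 genes for the difference between the studies, and 1388 genes had an unadjusted p under 0.05. The covariate raised the median SE of the genes called without it to 0.491, against 0.308 without it, and lowered their median absolute difference to 0.720, against 1.29. Treatment of obese mice and the mitochondrial share cannot be told apart in these libraries.

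**Figure D1:**
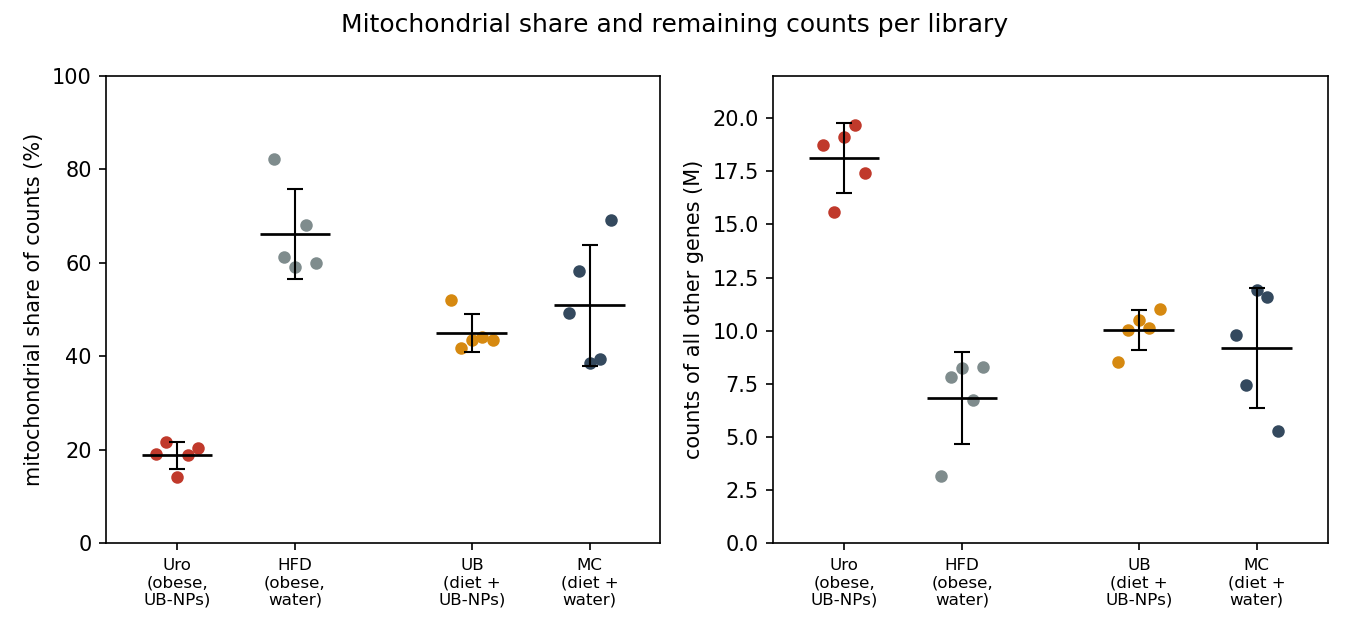
Left, percentage of counts from mitochondrial genes and their nuclear copies in each library; right, counts of all other genes in M (mega). Points are libraries (5 per group), lines are means and bars are SD: the 5 Uro libraries lie at 14.1% to 21.6%, below all other libraries, and the UB and MC libraries overlap.

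The difference between the studies also followed transcript length. The tested genes were put into 5 length groups of equal size. In the group with the shortest transcripts, 24.5% were called higher and 2.78% lower, and the median log2 difference was 0.454. In the group with the longest transcripts, 3.82% were called higher and 7.26% lower, and the median was -0.271. Uro over HFD showed the gradient, with medians of 0.416 in the shortest and -0.265 in the longest. For UB over MC the medians of the 5 length groups lay between 0.0040 and 0.044. The part of length in the results below was not tested.

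**Figure D2:**
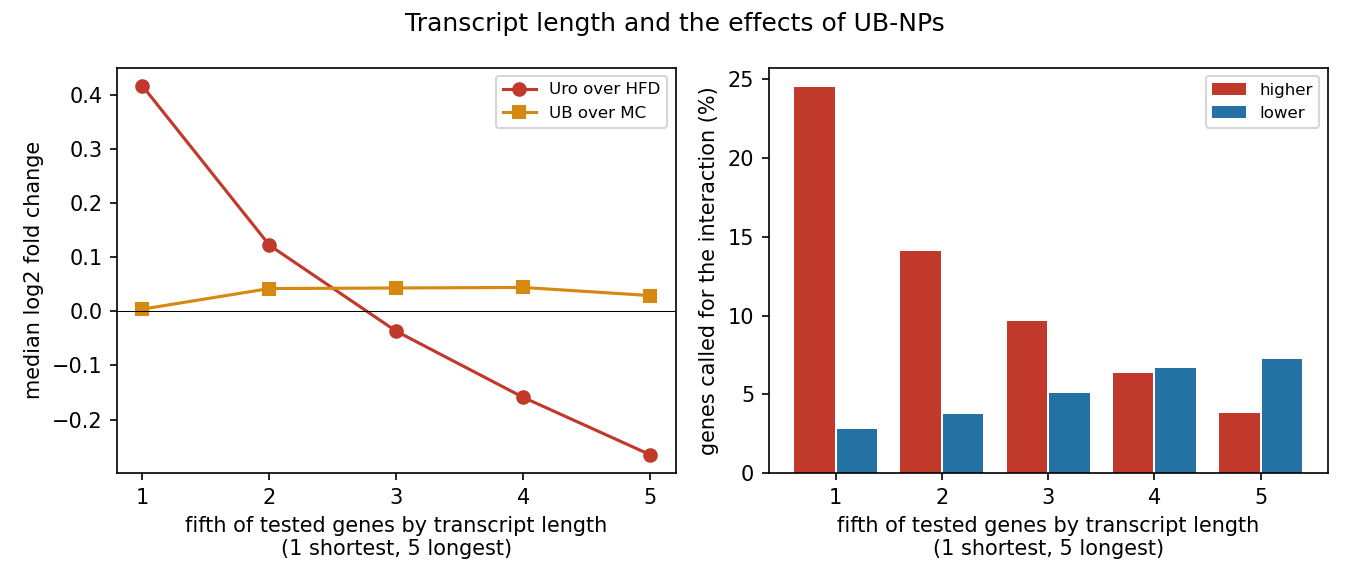
Left, median log2 fold change of Uro over HFD and of UB over MC in 5 groups of the tested genes by transcript length, from shortest to longest; right, percentage of each group called for the difference between the studies. The Uro over HFD median falls along the length groups, 0.416 in the shortest and -0.265 in the longest, and the UB over MC median stays between 0.0040 and 0.044.

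Of 14538 genes tested, 2441 (16.8%) were called for the difference between the studies at an adjusted p under 0.05 (edgeR quasi-likelihood test, Benjamini-Hochberg). Of these, 1699 (11.7%) were higher, meaning that Uro over HFD exceeded UB over MC, and 742 (5.1%) were lower. Uro over HFD itself gave 4431 calls (30.5%), with 2732 higher (18.8%) and 1699 lower (11.7%). UB over MC gave 155 calls (1.07%), with 59 higher (0.406%) and 96 lower (0.66%). Most differences were carried by the obese study: 2120 of the 2441 genes were also called in Uro over HFD and not in UB over MC. A further 43 were called in UB over MC and not in Uro over HFD, 263 in neither and 15 in both. Of the genes called higher, 83.0% had their lowest mean in HFD livers and 16.4% in UB livers. Their highest mean was in Uro livers for 79.3% and in MC livers for 12.5%. Of the genes called lower, 72.8% had their highest mean in HFD livers and 25.6% in UB livers. Over all tested genes, HFD was lowest in 32.3% and highest in 34.9%, and Uro was highest in 27.9%. A call higher itself favours a low HFD or UB mean and a high Uro or MC mean, and a call lower the reverse. The shares among called genes thus only describe which group of each pair was the extreme one. Across the 14538 genes, the effects in the 2 studies, which share no library, had a Pearson r of 0.0732 and the same sign in 53.1%. Genes are not independent replicates, so these are descriptions.

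On log2(TPM + 1) with limma the split moved: 2516 of 2651 called genes were higher, and the median over all genes was 0.28, against -0.027 on counts. Directions below are from counts and are relative to a median near 0.

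**Figure D3:**
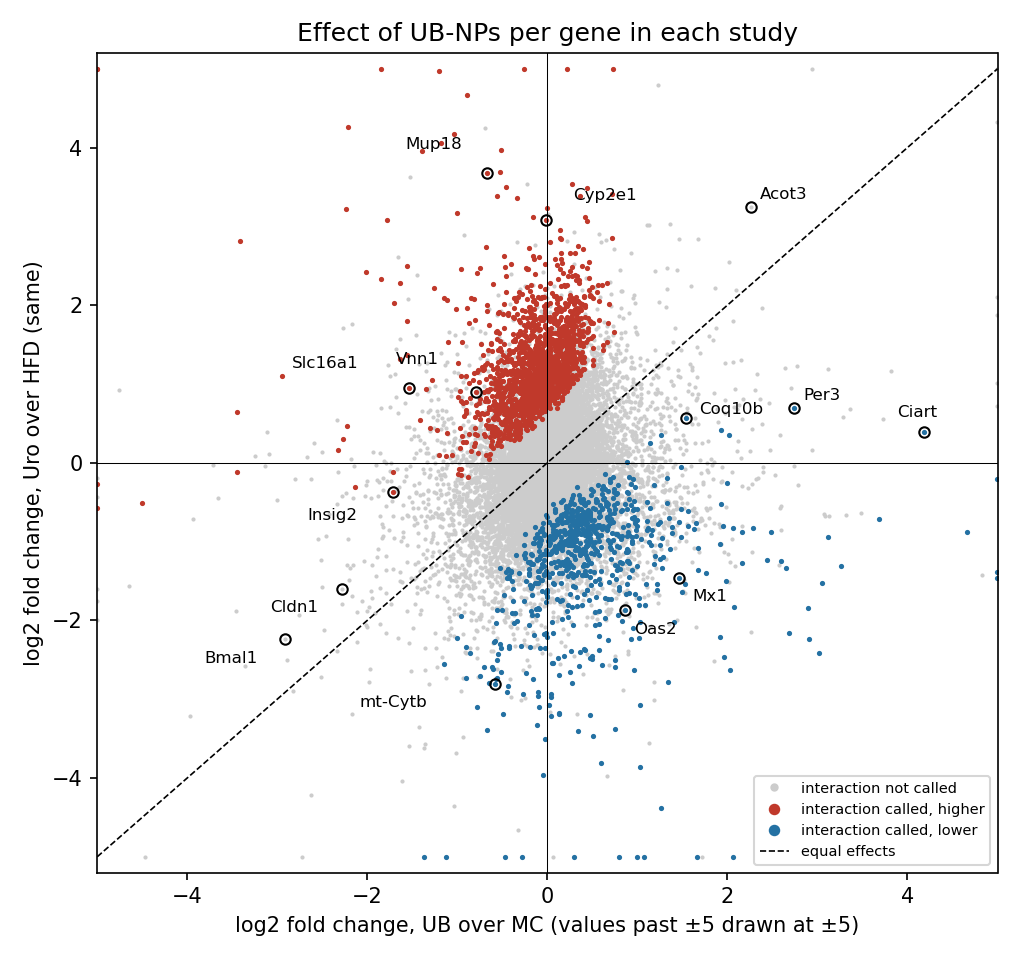
Each point is a gene, with its log2 fold change for UB over MC on the horizontal axis and for Uro over HFD on the vertical axis, genes called for the difference in colour and equal effects on the dashed line. Values past 5 are drawn at 5, and points spread farther along the vertical axis, where 4431 genes were called, than along the horizontal axis, where 155 were.

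Pathways differed in which study carried the difference. Members called higher were 17 of 20 major urinary proteins, 62 of 77 nuclear genes of oxidative phosphorylation, 15 of 21 lipoprotein genes, 26 of 38 proteasome subunits and 29 of 47 genes of fatty acid oxidation, against 11.7% of all genes. Interferon response genes were called lower in 18 of 36 and clock genes in 4 of 20, against 5.1% of all genes. UB over MC leaned up in the last 2 lists, with medians of 0.92 for interferon genes and 0.70 for clock genes, and down for major urinary proteins, at -1.34, and growth hormone and sex-biased genes, at -0.46. Over all genes tested it was 0.033.

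**Figure D4:**
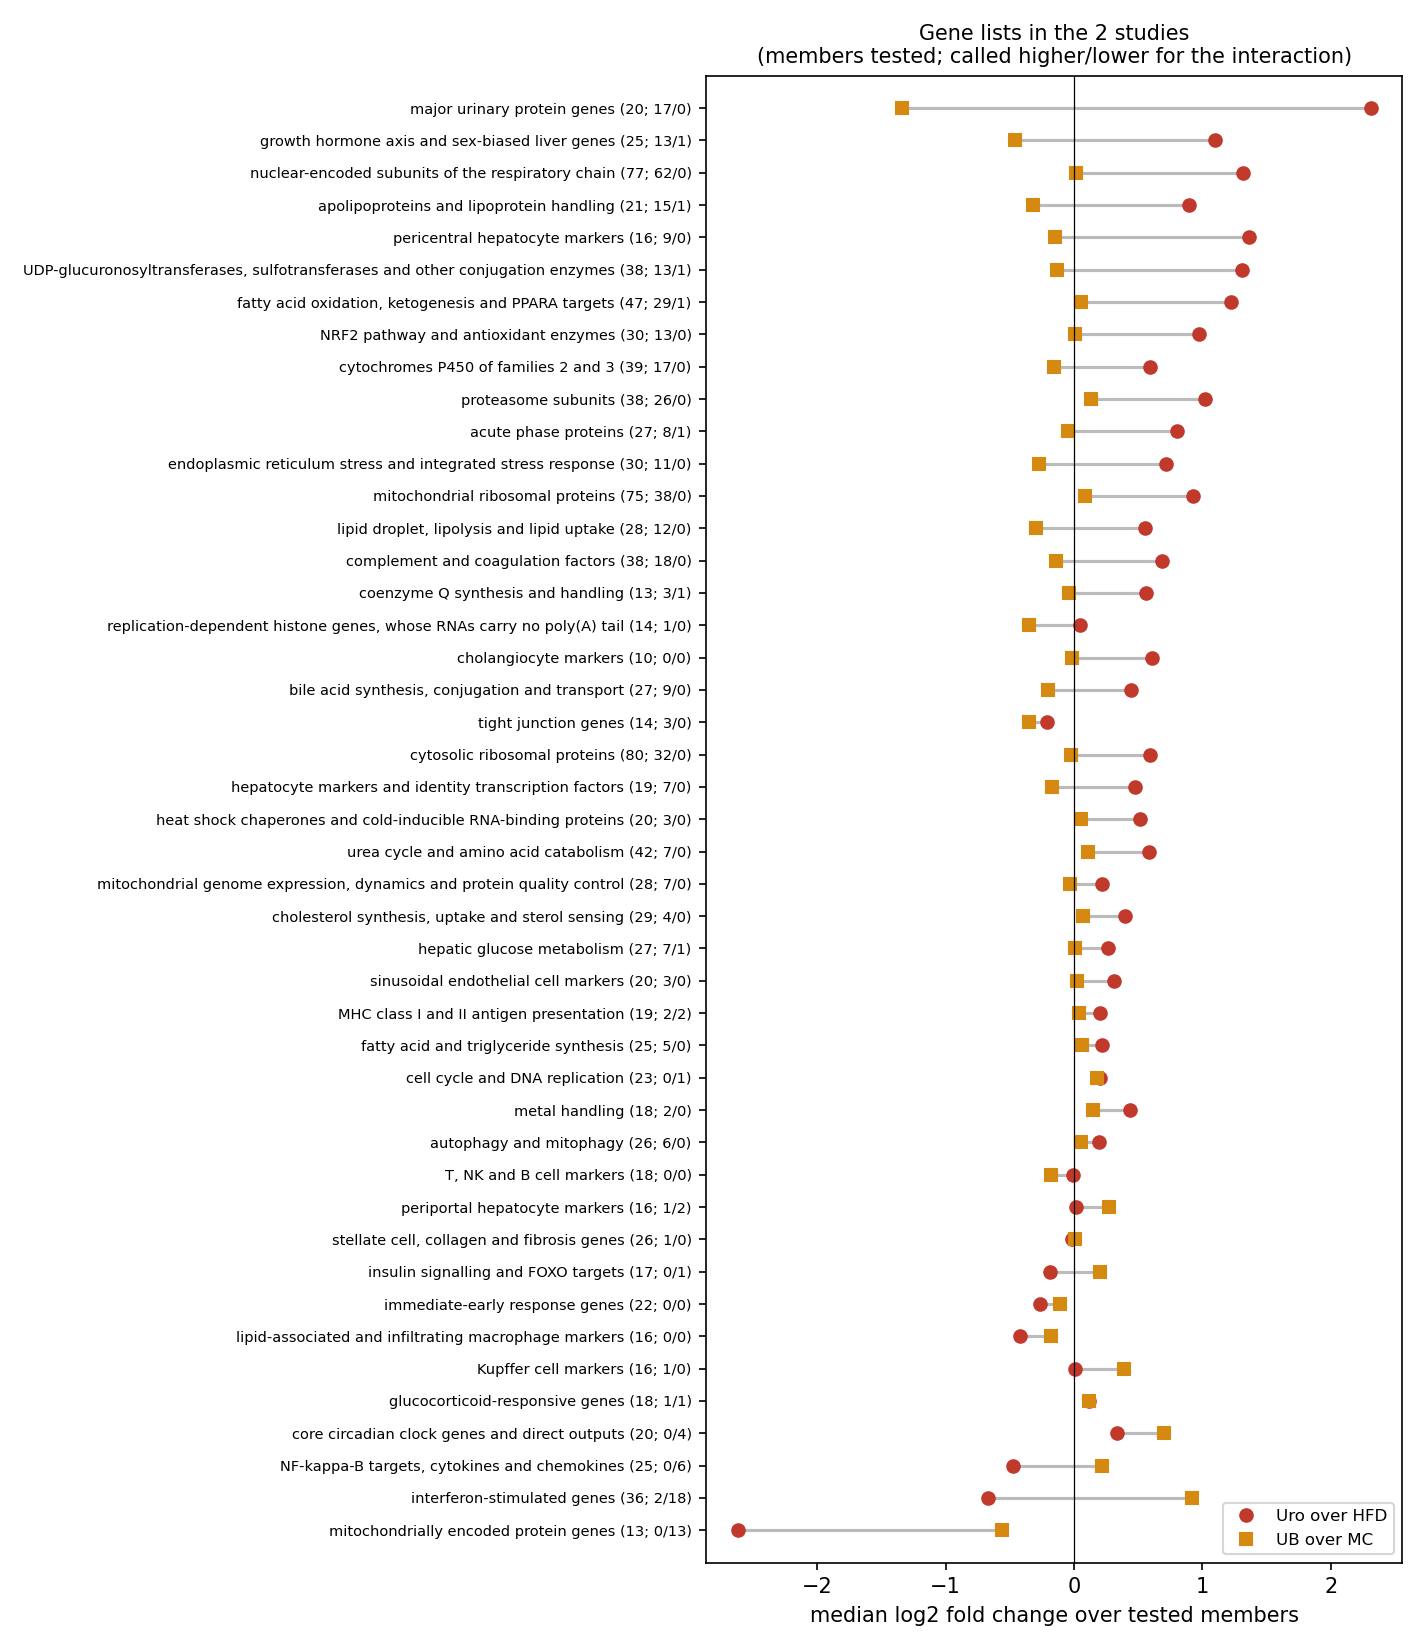
For each gene list with at least 10 tested members, the median log2 fold change of Uro over HFD and of UB over MC, and the number of members called higher or lower for the difference between the studies. Nuclear oxidative phosphorylation genes have 62 of 77 members called higher, and interferon response genes have 18 of 36 called lower.

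Interferon response genes were lower in the difference between the studies, with medians of opposite sign in the 2 studies. Of 36 tested members, 18 were called lower and 2 higher, with a median log2 difference of -1.42. Uro over HFD had 12 lower and 4 higher calls and a median of -0.67, while UB over MC had 1 higher call, Mx1, and a median of 0.92. The genes called lower span the pathway. They include the transducers Stat2 and Irf9, the inducible factor Irf7, the RNA sensor Ifih1, the DNA sensor Zbp1, and the antiviral effectors Mx1, Mx2, Oas2, Oas3, Oasl2, Ifit1, Ifit2, Ifit3 and Ifit3b. Near-identical copies such as Ifit3 and Ifit3b may share reads and are uncertain. Outside the list, the interferon-inducible GTPase genes Gbp4 (-3.44 ± 0.89), Gbp8 (-3.07 ± 0.72) and Tgtp2 (-2.95 ± 0.70) were also among the 12 most negative called differences of characterised genes with at least 5 CPM in a group, and they too have close paralogs.

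Mx1 (chromosome 16, 97248235 to 97264107, GRCm39) encodes a GTPase that blocks virus replication. It had 2.27, 2.37, 1.82, 3 and 1.88 CPM in Uro libraries, against 4.57, 4.4, 5.06, 7.16 and 9.96 CPM in HFD libraries. In the prevention study it had 8.04, 3.21, 10.5, 5.18 and 5.31 CPM in UB libraries, against 2.21, 0.882, 1.61, 3.36 and 3.63 CPM in MC libraries. All Uro libraries lay below all HFD libraries, and UB and MC libraries overlapped. The log2 fold change was -1.46 ± 0.34 (SE) for Uro over HFD and 1.46 ± 0.35 for UB over MC, both called, and their difference was -2.92 ± 0.49 (edgeR adjusted p = 0.000149). Mx1 was thus among 12 genes called in opposite directions in the 2 studies.

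Oas2, whose product makes the 2′-5′ oligoadenylates that switch on RNase L, had 4.45, 5.06, 1.96, 4.8 and 3.58 CPM in Uro libraries, against 9.14, 14.3, 12.7, 14.4 and 21.6 CPM in HFD libraries. It had 11.6, 7.81, 15.8, 12.5 and 4.25 CPM in UB libraries, against 4.89, 6.98, 2.93, 6.97 and 6.85 CPM in MC libraries. Every Uro library was below every HFD library, and the UB and MC ranges overlapped. The difference between the studies was -2.73 ± 0.44 (edgeR adjusted p = 0.000137). Trim30a, an inducible regulator of immune signalling, averaged 2.34 ± 0.875 CPM in Uro and 6.79 ± 2.17 CPM in HFD livers, and 8.79 ± 5.62 CPM in UB and 3.77 ± 1.18 CPM in MC livers (SD, n = 5 each). Its difference was -2.76 ± 0.53 (edgeR adjusted p = 0.000804).

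Stat2, which carries the interferon signal to the nucleus, averaged 24.1 ± 7.42 CPM in Uro and 93.9 ± 14.1 CPM in HFD livers, and 47.6 ± 24.8 CPM in UB and 40.9 ± 17.2 CPM in MC livers. Its call came from obese mice, with -1.96 ± 0.30 for Uro over HFD, while UB over MC, at 0.22 ± 0.29, was not called (edgeR adjusted p = 0.798). Ifit1, an RNA-binding effector, averaged 9.64 ± 4.26 CPM in Uro and 21.2 ± 2.89 CPM in HFD livers, and 28.7 ± 25.8 CPM in UB and 15.7 ± 3.9 CPM in MC livers, and its difference was -2.01 ± 0.56 (edgeR adjusted p = 0.0182). UB replicate 3 was high for several members: it had 74.6 CPM of Ifit1, against 14.0 to 20.9 CPM in the other UB libraries. Without UB replicate 3, 17 members were called lower and 3 higher. Over the 20 libraries left out in turn, 14 to 22 were called lower and 2 or 3 higher. Summed CPM of the list was 619 to 959 CPM in Uro, 824 to 985 CPM in HFD, 580.0 to 2595 CPM in UB and 620.4 to 820.0 CPM in MC libraries. UB replicates 1 and 3 had 1159 and 2595 CPM. UB replicates 2, 4 and 5, at 580.0, 774.9 and 647.5 CPM, did not exceed the highest MC library.

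The members called higher were Bst2, which tethers virus particles to the cell surface, and Ifi27, a mitochondrial membrane protein. Bst2 averaged 210.3 ± 72.2 CPM in Uro and 48.3 ± 6.83 CPM in HFD livers, and 60.1 ± 22.6 CPM in UB and 57.1 ± 13.2 CPM in MC livers, with a difference of 2.05 ± 0.35 (edgeR adjusted p = 0.000236). Ifi27 averaged 122 ± 29.8 CPM in Uro and 41.7 ± 10.9 CPM in HFD livers, and 69.1 ± 20.5 CPM in UB and 61.4 ± 12.6 CPM in MC livers, with a difference of 1.38 ± 0.30 (edgeR adjusted p = 0.00191). The interferon calls depended on scale: on log2(TPM + 1), 4 of the 36 were called lower and 3 higher.

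Upstream sequence is shown for 3 members called lower, since they moved together and the interferon-stimulated response element is the known entry point of this pathway. Of 25 list members with an entry in the RefSeq promoter table (GRCm38.p6), 14 held GAAA, any 2 bases and GAAA on either strand within 250 bases before the start, against 3.46% of 27025 genes. Among members called lower it was in 7 of 13, and among those called higher in 1 of 1. The regions are chr7:104465194-104465443 (minus strand) for Trim30a, chr10:128270248-128270497 (plus strand) for Stat2 and chr19:34640639-34640888 (plus strand) for Ifit1. Where a gene had several starts, the one with most matches is shown. Capitals mark the matches, and a match is a description, not a site.
Trim30a: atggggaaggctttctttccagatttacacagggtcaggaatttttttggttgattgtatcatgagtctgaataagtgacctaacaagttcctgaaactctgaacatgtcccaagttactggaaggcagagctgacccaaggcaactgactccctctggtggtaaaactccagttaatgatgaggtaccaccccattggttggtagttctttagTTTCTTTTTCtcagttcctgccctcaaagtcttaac
Stat2: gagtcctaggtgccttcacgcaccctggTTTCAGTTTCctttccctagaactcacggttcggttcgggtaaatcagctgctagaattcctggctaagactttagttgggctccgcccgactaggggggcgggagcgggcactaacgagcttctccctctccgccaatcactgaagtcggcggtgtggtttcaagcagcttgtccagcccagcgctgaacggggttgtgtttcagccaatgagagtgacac
Ifit1: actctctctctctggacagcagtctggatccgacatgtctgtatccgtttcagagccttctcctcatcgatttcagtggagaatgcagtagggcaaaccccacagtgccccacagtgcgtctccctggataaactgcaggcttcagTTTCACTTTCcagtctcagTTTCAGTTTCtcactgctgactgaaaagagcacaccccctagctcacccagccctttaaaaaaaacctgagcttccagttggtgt

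**Figure D5:**
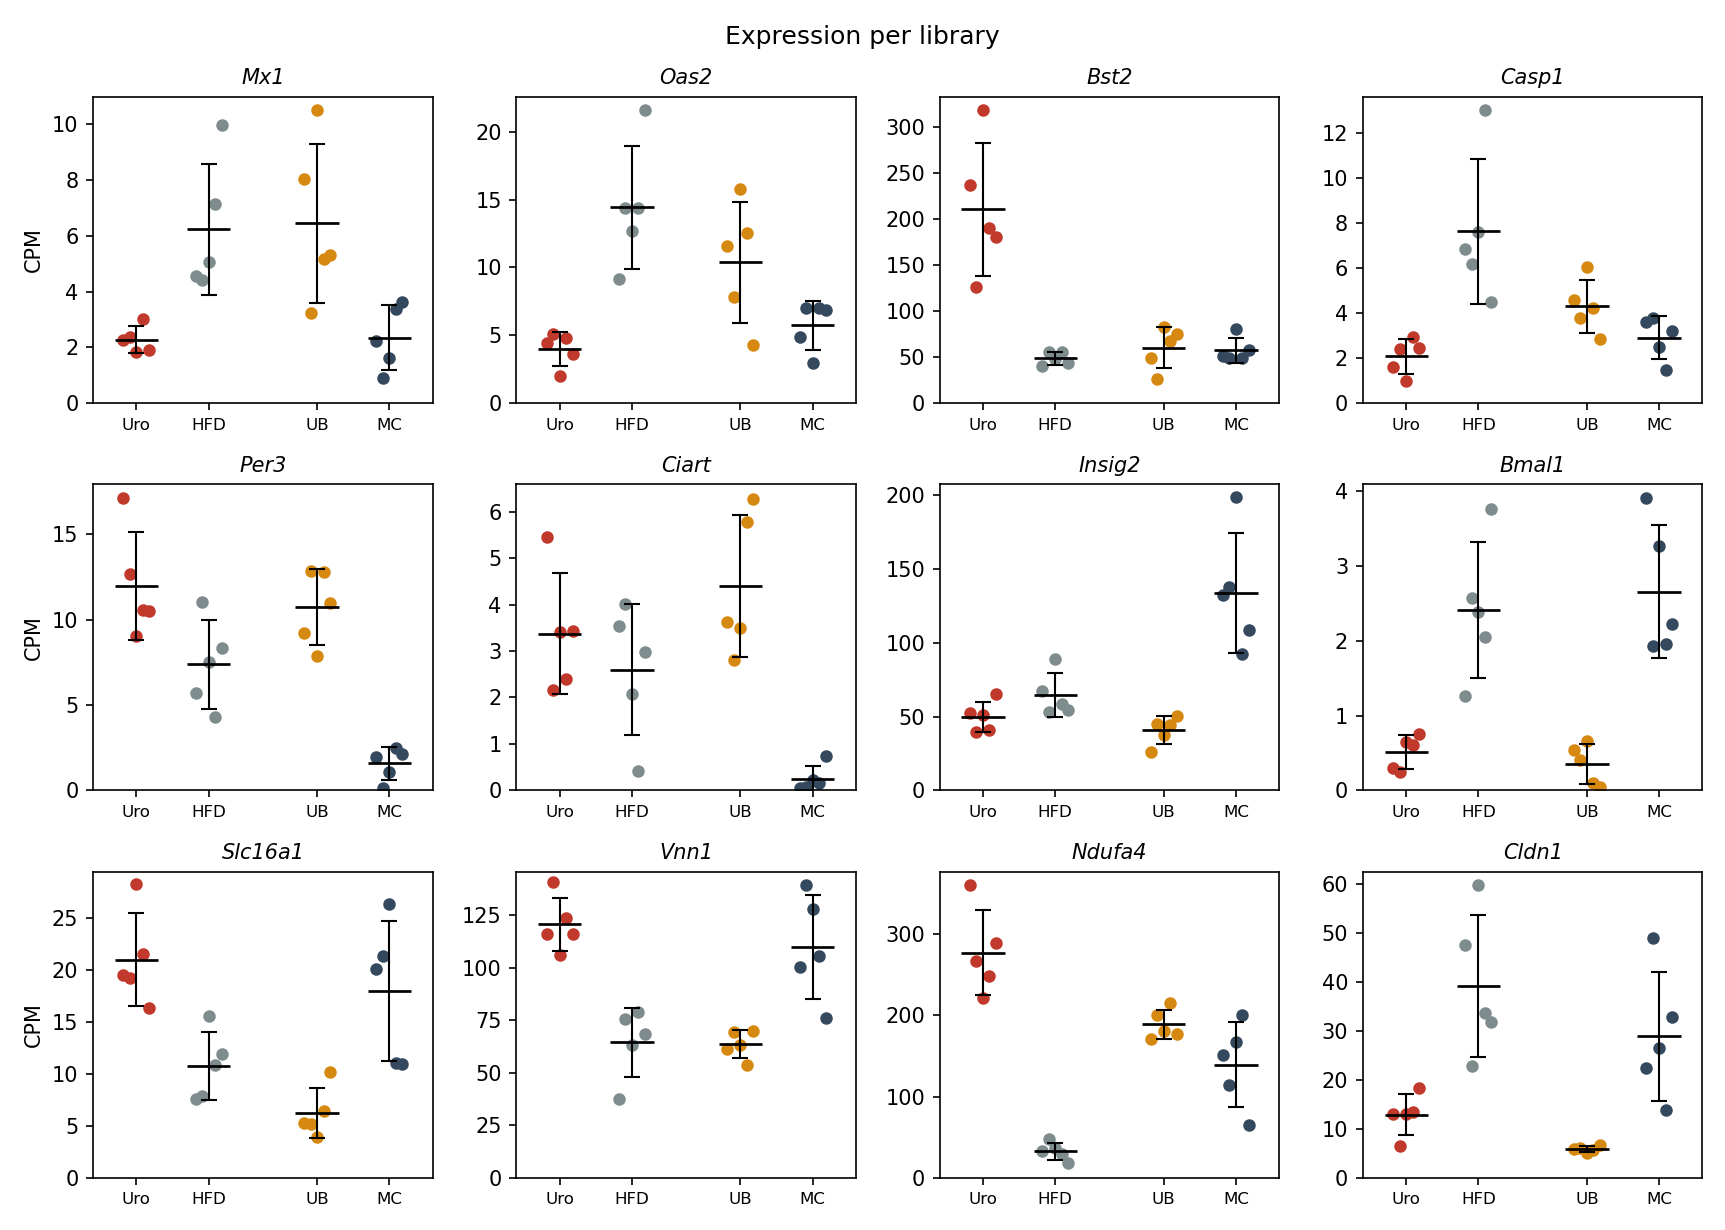
CPM per library of 12 genes named in the text, in Uro, HFD, UB and MC livers. Points are libraries (5 per group), lines are means and bars are SD. Mx1 and Oas2 are low in all Uro libraries against all HFD libraries, and Ciart and Per3 are high in all UB libraries against all MC libraries.

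Some genes of inflammation were also called lower. Of 25 tested, 6 were called lower and 0 higher: Tnf, Cxcl1, Vcam1, Nfkbiz, Casp1 and Birc3. Over all genes tested, 5.1% were called lower and 11.7% higher. The list median was -0.476 for Uro over HFD and 0.221 for UB over MC, where 0 members were called. On log2(TPM + 1), 1 member was called lower, and the median difference of the list was 0.075. Casp1, which cleaves pro-interleukin-1β, had 1.6, 2.41, 0.98, 2.92 and 2.43 CPM in Uro libraries, against 6.85, 6.17, 7.59, 13 and 4.5 CPM in HFD libraries. In the prevention study it had 4.58, 3.77, 6.07, 4.2 and 2.85 CPM in UB libraries, against 3.61, 3.77, 2.47, 1.46 and 3.22 CPM in MC libraries. Uro libraries lay below all HFD libraries, and UB overlapped MC. Its difference was -2.45 ± 0.46 (edgeR adjusted p = 0.000497). Tnf was at 0.34 CPM in Uro, 0.943 CPM in HFD, 0.292 CPM in UB and 0 CPM in all MC libraries, so no fold is given, although its adjusted p was 0.014 in edgeR. Without UB replicate 1, 3 of the 25 were called lower. Il1b and Ccl2 averaged 0.833 to 2.10 CPM in the 4 groups and were not called.

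Immune cell markers are given beside these genes, and their part in the results was not tested. Over all genes tested, 11.7% were called higher and 5.1% lower, so few calls are to be looked for in lists this short. Of 16 Kupffer cell markers 1 was called, Id3 (higher), of 16 markers of lipid-associated macrophages 0, and of 18 markers of T, NK and B cells 0 (edgeR). At an unadjusted p under 0.05 these last 2 lists had 4 and 3 members, and DESeq2 called 0 in both. On log2(TPM + 1), 3 and 4 of their members were called higher. With 1 library left out the calls were 0 or 1 for Kupffer cells, up to 3 for lipid-associated macrophages (without MC replicate 5) and 0 or 1 for T, NK and B cells. Summed CPM of Kupffer cell markers was 407 to 645 CPM in Uro, 306 to 765 CPM in HFD, 354 to 653 CPM in UB and 238 to 584 CPM in MC libraries. For T, NK and B cell markers it was 59.2 to 104 CPM in Uro, 42.3 to 87.2 CPM in HFD, 28 to 48.5 CPM in UB and 36.4 to 54.7 CPM in MC libraries. For neutrophils, only 4 of 10 markers passed the filter on low counts, and Ly6g, Mpo and Elane were among those that did not. Of the 4, 1 was called lower and 0 higher, and the count stayed at 1 with any 1 library left out. DESeq2 also called 1, and on log2(TPM + 1) 0 were called. Summed CPM of the 4 was 4.55 to 24.2 CPM in Uro, 6.86 to 10.1 CPM in HFD, 4.88 to 26.1 CPM in UB and 3.27 to 8.93 CPM in MC libraries. In bulk liver, fewer cells of a type and less RNA per cell cannot be told apart.

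Clock genes differed mainly through UB over MC. Of 20 tested, 4 were called lower for the difference and 0 higher: Ciart, Per3, Tef and Per2. In UB over MC, 8 members were called higher (Per1, Per2, Per3, Nr1d2, Dbp, Tef, Ciart and Usp2) and 1 lower (Bmal1). In Uro over HFD, 3 were called higher, Cry1 and Usp2 among them, and 4 lower (Bmal1, Clock, Npas2, Rora). Leaving out 1 library at a time gave 2 to 5 lower calls and 0 or 1 higher. There were 2 lower calls when any 1 of these was left out: Uro replicates 3, 4 and 5, HFD replicate 2, UB replicates 2, 4 and 5, and MC replicates 2 and 3. On log2(TPM + 1) 0 members were called lower and 1 higher, and the median difference was 0.175, against -0.33 on counts.

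Ciart (chromosome 3, 95785815 to 95789991, GRCm39), a repressor of CLOCK and BMAL1, had 3.63, 2.81, 3.49, 5.77 and 6.28 CPM in UB libraries, against 0.0582, 0.0802, 0.23, 0.15 and 0.742 CPM in MC libraries. It had 5.45, 2.17, 3.41, 2.4 and 3.44 CPM in Uro libraries, against 3.54, 4, 2.08, 0.411 and 2.97 CPM in HFD libraries. UB libraries were all above MC libraries, of which the highest had 0.742 CPM, and Uro overlapped HFD. The log2 fold change was 4.18 ± 0.57 for UB over MC and 0.38 ± 0.45 for Uro over HFD, with a difference of -3.80 ± 0.72 (edgeR adjusted p = 0.000556).

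Per3, a Period family repressor, had 9.23, 12.9, 7.86, 12.8 and 11 CPM in UB libraries, against 1.98, 0.16, 1.09, 2.51 and 2.14 CPM in MC libraries. In obese mice it had 17.1, 12.7, 9.02, 10.6 and 10.5 CPM in Uro libraries, against 5.71, 11, 7.49, 4.28 and 8.35 CPM in HFD libraries. The UB libraries did not overlap the MC libraries, and the Uro and HFD libraries overlapped. Its difference was -2.05 ± 0.47 (edgeR adjusted p = 0.00364). Tef, a transcription factor that carries clock output, averaged 108 ± 21.8 CPM in Uro and 91.2 ± 34.2 CPM in HFD livers, and 117 ± 12.4 CPM in UB and 53.2 ± 15.2 CPM in MC livers, with a difference of -0.89 ± 0.30 (edgeR adjusted p = 0.0431). Per2, another Period repressor, averaged 13.1 ± 5.39 CPM in Uro and 10.2 ± 5.18 CPM in HFD livers, and 4.93 ± 2.62 CPM in UB and 1.2 ± 0.616 CPM in MC livers, with a difference of -1.67 ± 0.57 (edgeR adjusted p = 0.0486). The calls of Per2 and Tef were fragile: they were lost in 14 and 10 of the 20 fits that left out 1 library, with adjusted p up to 0.102 and 0.112.

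Bmal1, the activator of the loop, was lower with UB-NPs in both studies. It had 0.301, 0.241, 0.642, 0.601 and 0.76 CPM in Uro libraries, against 1.26, 2.57, 2.38, 2.05 and 3.76 CPM in HFD libraries. With dosing from the start it had 0.536, 0.408, 0.655, 0.0977 and 0.0483 CPM in UB libraries, against 3.9, 1.92, 3.27, 1.96 and 2.23 CPM in MC libraries. Treated libraries lay below untreated libraries in each study. The fold change was -2.23 ± 0.50 for Uro over HFD and -2.91 ± 0.53 for UB over MC, and their difference, 0.68 ± 0.71, was not called (edgeR adjusted p = 0.564).

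Sequence upstream of the 3 called members in the table is shown because CLOCK and BMAL1 act through the E-box CACGTG. It was present within 250 bases before the start in 5 of 16 list members with an entry, against 6.86% of 27025 genes. Ciart held 3 matches, Tef 1 and Per3 0 in this window, which says nothing about E-boxes elsewhere. The regions (RefSeq, GRCm38.p6) are chr3:95882229-95882478 (minus strand) for Ciart, chr15:81802423-81802672 (plus strand) for Tef and chr4:151044666-151044915 (minus strand) for Per3, with E-box matches in capitals.
Ciart: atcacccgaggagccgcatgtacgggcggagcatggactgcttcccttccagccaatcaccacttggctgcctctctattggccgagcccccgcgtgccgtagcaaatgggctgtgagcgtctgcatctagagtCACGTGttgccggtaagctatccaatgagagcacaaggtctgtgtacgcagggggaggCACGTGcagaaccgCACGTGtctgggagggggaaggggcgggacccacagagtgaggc
Tef: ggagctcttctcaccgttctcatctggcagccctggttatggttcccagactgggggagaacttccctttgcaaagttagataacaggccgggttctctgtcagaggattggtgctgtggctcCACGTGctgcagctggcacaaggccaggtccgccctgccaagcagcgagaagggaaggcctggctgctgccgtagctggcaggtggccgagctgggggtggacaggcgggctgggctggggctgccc
Per3: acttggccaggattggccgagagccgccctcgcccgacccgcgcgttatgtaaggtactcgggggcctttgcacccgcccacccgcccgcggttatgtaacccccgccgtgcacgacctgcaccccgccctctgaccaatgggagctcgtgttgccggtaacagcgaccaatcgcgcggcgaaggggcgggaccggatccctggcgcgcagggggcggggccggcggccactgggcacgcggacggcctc

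With these 4 clock genes, 43 genes were called for the difference and in UB over MC but not in Uro over HFD, 27 of them higher and 16 lower. Insig2, which holds the sterol sensor SCAP in the endoplasmic reticulum, had 26.2, 45, 37.5, 44.5 and 50.4 CPM in UB libraries, against 132, 137, 199, 92.1 and 109 CPM in MC libraries. In obese mice it had 52.4, 39.5, 51, 41 and 65.2 CPM in Uro libraries, against 67.4, 52.8, 89, 58.5 and 54.5 CPM in HFD libraries. UB libraries were all below MC libraries, and Uro overlapped HFD. Its difference was 1.34 ± 0.30 (edgeR adjusted p = 0.00224). Apoa1, the chief HDL protein, averaged 7853 ± 2014 CPM in Uro and 6040 ± 1088 CPM in HFD livers, and 3608 ± 1110 CPM in UB and 7828 ± 2056 CPM in MC livers, with a difference of 1.496 ± 0.35 (edgeR adjusted p = 0.00366). Agpat2, an enzyme of triglyceride synthesis, averaged 84.9 ± 9.56 CPM in Uro and 66 ± 10.5 CPM in HFD livers, and 44.5 ± 10.7 CPM in UB and 77.8 ± 17.3 CPM in MC livers, with a difference of 1.17 ± 0.25 (edgeR adjusted p = 0.00205). Arnt, the partner of the aryl hydrocarbon receptor, lay the other way: it averaged 12.3 ± 1.01 CPM in Uro and 12.3 ± 3.09 CPM in HFD livers, and 16.5 ± 3.26 CPM in UB and 8.91 ± 0.742 CPM in MC livers, and its difference was -0.88 ± 0.25 (edgeR adjusted p = 0.016). Elovl3 and Selenbp2, both more abundant in male liver, were lower in UB over MC at -2.32 ± 0.45 and -2.14 ± 0.39. Their differences were 2.48 ± 0.62 (edgeR adjusted p = 0.0092) for Elovl3 and 1.84 ± 0.53 (edgeR adjusted p = 0.0219) for Selenbp2.

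Of the 79 genes called in both studies, 67 moved in the same direction and 12 in opposite directions. In 9 of them, Uro exceeded HFD while UB was below MC: Slc16a1, Car14, Inhbc, Vnn1, Dio1, Cd81, Adtrp and the predicted genes Gm7666 and Gm44775. In the other 3, Mx1, Klhdc8b and Apbb3, the directions were the reverse.

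Slc16a1 (chromosome 3, 104545811 to 104565780, GRCm39), the transporter of lactate and ketone bodies across the cell membrane, had 19.5, 19.2, 28.2, 21.5 and 16.3 CPM in Uro libraries, against 7.54, 7.83, 15.6, 10.9 and 11.9 CPM in HFD libraries. In the prevention study it had 5.24, 5.15, 3.97, 6.45 and 10.2 CPM in UB libraries, against 20, 21.3, 26.3, 11 and 11 CPM in MC libraries. Uro lay above HFD and UB below MC, with no overlap in either study. The log2 fold change was 0.95 ± 0.26 for Uro over HFD and -1.53 ± 0.27 for UB over MC, and the difference was 2.49 ± 0.37 (edgeR adjusted p = 7.15e-05). Vnn1, a pantetheinase and known PPARA target, had 116, 141, 106, 124 and 116 CPM in Uro libraries, against 37.4, 75.6, 63.1, 78.7 and 68.5 CPM in HFD libraries. It had 61.4, 69.6, 63.3, 53.9 and 69.8 CPM in UB libraries, against 100.1, 139, 128, 106 and 75.9 CPM in MC libraries. Here too the groups separated in both studies, in opposite directions. Its difference was 1.69 ± 0.26 (edgeR adjusted p = 8.39e-05).

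Inhbc, which encodes a liver-made subunit of activin C, averaged 66.8 ± 21 CPM in Uro and 35.5 ± 7.81 CPM in HFD livers, and 21.2 ± 5.98 CPM in UB and 41.5 ± 9.04 CPM in MC livers, with a difference of 1.88 ± 0.32 (edgeR adjusted p = 0.000201). Car14, a carbonic anhydrase, averaged 15.2 ± 5.23 CPM in Uro and 7.91 ± 2.6 CPM in HFD livers, and 5.19 ± 1.61 CPM in UB and 13.2 ± 3.72 CPM in MC livers, with a difference of 2.27 ± 0.38 (edgeR adjusted p = 0.000143). Dio1, which converts thyroxine to its active form, averaged 70.6 ± 13.3 CPM in Uro and 40.9 ± 9.75 CPM in HFD livers, and 39.2 ± 13.2 CPM in UB and 76.5 ± 21.2 CPM in MC livers, with a difference of 1.75 ± 0.32 (edgeR adjusted p = 0.000429). In these 3 genes the UB and MC means stood in the reverse order of the Uro and HFD means, and at least 1 of the pairs of groups overlapped. Cd81 and Adtrp had differences of 1.68 ± 0.31 and 1.69 ± 0.32. Klhdc8b and Apbb3, higher in UB than in MC and lower in Uro than in HFD, had differences of -1.71 ± 0.34 and -2.004 ± 0.38.

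Nuclear genes of the mitochondrion were higher in Uro over HFD with a median near 0 in UB over MC, opposite to the mitochondrial transcripts themselves. All 13 mitochondrial protein-coding genes tested were called lower for the difference, with medians of -2.62 for Uro over HFD and -0.56 for UB over MC. Their counts are part of the mitochondrial share, so they restate it. mt-Cytb, the cytochrome b of complex III, averaged 11730 ± 1953 CPM in Uro and 81870 ± 40780 CPM in HFD livers, and 36120 ± 10840 CPM in UB and 54150 ± 20770 CPM in MC livers, and its difference was -2.22 ± 0.44 (edgeR adjusted p = 0.00092).

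Of 77 nuclear genes of oxidative phosphorylation, 62 were called higher and 0 lower, with a median of 1.31 for Uro over HFD and 0.012 for UB over MC. Ndufa4, a subunit of the electron transport chain, had 359.5, 266, 221, 248 and 288 CPM in Uro libraries, against 33, 47.4, 36.5, 29.8 and 18.6 CPM in HFD libraries. With dosing from the start it had 170.5, 200.4, 181, 215 and 177 CPM in UB libraries, against 151, 114, 167, 199.9 and 64.5 CPM in MC libraries. All Uro libraries were above all HFD libraries, and UB overlapped MC. Its difference was 2.63 ± 0.34 (edgeR adjusted p = 2.16e-05). Atp5mc3, which forms the c-ring of ATP synthase, and Cox7a2, of cytochrome c oxidase, had differences of 2.71 ± 0.34 (edgeR adjusted p = 2.16e-05) and 2.04 ± 0.29 (edgeR adjusted p = 4.37e-05). The transcripts of this list were short, with a median length of 765 bases.

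Lists of other cell machinery moved likewise, with median transcript lengths of 1339 bases for mitochondrial ribosomal proteins, 789.5 for cytoplasmic ones and 1526.5 for the proteasome. Among mitochondrial ribosomal proteins 38 of 75 were called higher and 0 lower, led by Mrpl20, which averaged 65.1 ± 11.2 CPM in Uro and 11.8 ± 3.09 CPM in HFD livers, and 47.1 ± 7.7 CPM in UB and 42.8 ± 12 CPM in MC livers. Its difference was 2.33 ± 0.29 (edgeR adjusted p = 2.00e-05). Cytoplasmic ribosomal proteins had 32 of 80 called higher and 0 lower, with a median difference of 0.59. Rps28, of the small subunit, had a difference of 1.56 ± 0.23 (edgeR adjusted p = 5.67e-05). Ribosomal proteins have many processed copies in the genome, and how shared reads were counted is not given, so their values are uncertain. The proteasome had 26 of 38 called higher and 0 lower. Psmb5, its chymotrypsin-like subunit, averaged 158 ± 26.1 CPM in Uro and 43.8 ± 13.9 CPM in HFD livers, and 97.8 ± 16.1 CPM in UB and 103 ± 27.8 CPM in MC livers, and its difference was 1.93 ± 0.30 (edgeR adjusted p = 7.59e-05).

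Genes that burn fatty acids were higher in obese mice given UB-NPs relative to the prevention study. Of 47 tested, 29 were called higher and 1, Ppargc1a, lower; in UB over MC alone 1 was called higher (Acot3) and 1 lower (Vnn1). Acaa2, the last enzyme of mitochondrial β-oxidation, had 557, 728, 724, 538 and 544 CPM in Uro libraries, against 120.5, 139, 108, 109 and 68.1 CPM in HFD libraries. It had 363, 296, 332, 450.1 and 454 CPM in UB libraries, against 332, 275, 442, 468 and 243 CPM in MC libraries. Uro libraries were all above HFD libraries, which were the lowest of the 20, and UB overlapped MC. The difference was 2.40 ± 0.30 (edgeR adjusted p = 2.00e-05). Acadvl, which starts the oxidation of very long chains, had a difference of 1.70 ± 0.28 (edgeR adjusted p = 0.000123). Cyp4a14, an omega-hydroxylase and PPARA target, averaged 516 ± 169 CPM in Uro and 71.3 ± 68.3 CPM in HFD livers, and 492 ± 105 CPM in UB and 445 ± 179.8 CPM in MC livers, with a difference of 2.71 ± 0.64 (edgeR adjusted p = 0.00645). Pdk4, which diverts pyruvate from oxidation, had 2.63 ± 0.57 (edgeR adjusted p = 0.00282), although both pairs of groups overlapped.

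Ppargc1a, a coactivator of mitochondrial genes, lay the other way, at 2.78 ± 0.952 CPM in Uro and 6.05 ± 2.37 CPM in HFD livers, and 4.83 ± 2.35 CPM in UB and 3.73 ± 1.51 CPM in MC livers. Its difference was -1.46 ± 0.49 (edgeR adjusted p = 0.0386), and the call was lost in 10 of the 20 fits that left out 1 library. Ppara itself was not called, at -0.065 ± 0.34 (edgeR adjusted p = 0.926), and neither was Cpt1a, which admits fatty acids to mitochondria, at 0.36 ± 0.25 (edgeR adjusted p = 0.342). The PPAR element AGGTCA, any base and AGGTCA was searched within 250 bases before the start. It was in 0 of 34 list members with a RefSeq promoter entry, against 0.0407% of 27025 genes.

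Many lipid storage and export genes were called higher for the difference. Summed CPM of the lipid droplet list overlapped in obese mice, at 2000 to 2506 CPM in Uro and 1925 to 2435 CPM in HFD libraries. In the prevention study it was 1424 to 1845 CPM in UB and 1998 to 2532 CPM in MC libraries. The median log2 fold change of the list was 0.55 for Uro over HFD and -0.298 for UB over MC. Of 28 lipid droplet genes, 12 were called higher and 0 lower, and 8 without HFD replicate 1. Plin2, the main droplet coat protein of liver, had 292, 438, 459, 395 and 285 CPM in Uro libraries, against 95, 96.6, 109, 121 and 39.5 CPM in HFD libraries. In the prevention study it had 175, 206, 308, 276 and 346 CPM in UB libraries, against 327, 283, 509, 426 and 283 CPM in MC libraries. Uro and HFD separated, UB and MC overlapped, and the difference was 2.499 ± 0.36 (edgeR adjusted p = 4.70e-05). Of 21 apolipoprotein and lipoprotein genes, 15 were called higher and 1, Apobec1, lower. Mttp, which loads triglyceride onto apolipoprotein B, averaged 131 ± 15.8 CPM in Uro and 34.1 ± 4.91 CPM in HFD livers, and 80.6 ± 18.3 CPM in UB and 98.1 ± 23.8 CPM in MC livers, with a difference of 2.23 ± 0.26 (edgeR adjusted p = 9.35e-06). Apoe, a ligand for lipoprotein uptake, had a difference of 2.42 ± 0.36 (edgeR adjusted p = 5.96e-05). Cd36, a fatty acid importer, was called at 0.80 ± 0.28 (edgeR adjusted p = 0.0464), but lost the call in 14 of the 20 fits that left out 1 library. Of the droplet proteins of the CIDE family, Cidea (3.92 ± 1.34, edgeR adjusted p = 0.0545) and Cidec (1.11 ± 0.50, edgeR adjusted p = 0.138) were not called.

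Of 25 genes of fatty acid and triglyceride synthesis, 5 were called higher and 0 lower. The called genes were Fads2, Agpat2, Dgat2, Mogat1 and Slc25a1. Fads2, a desaturase, and Dgat2, which completes triglycerides, had differences of 1.64 ± 0.30 (edgeR adjusted p = 0.000481) and 1.28 ± 0.29 (edgeR adjusted p = 0.00266). The synthases and their regulators were not called: Fasn was at 0.70 ± 0.38, Acaca at -0.13 ± 0.33, Scd1 at -0.042 ± 0.49, Srebf1 at -0.58 ± 0.40 and Pparg at 0.029 ± 0.31.

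In cholesterol synthesis, 4 of 29 genes were called higher and 0 lower: Fdft1, Tm7sf2, Ebp and Insig2. This share was near the 11.7% of all tested genes called higher. Ebp, a sterol isomerase, averaged 89.2 ± 6.79 CPM in Uro and 31.4 ± 10.1 CPM in HFD livers, and 46.8 ± 6.1 CPM in UB and 72.2 ± 26.6 CPM in MC livers, with a difference of 2.13 ± 0.32 (edgeR adjusted p = 5.67e-05). Tm7sf2, a sterol reductase, had 2.68 ± 0.38 (edgeR adjusted p = 4.37e-05). Srebf2, the main transcription factor of the pathway, was not called at 0.38 ± 0.28 (edgeR adjusted p = 0.386). The sterol element TCAC, any base and CCAC was searched within 250 bases before the start. It was in 1 of 21 list members with a RefSeq promoter entry, against 1.22% of 27025 genes, and in 0 of 3 called higher.

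Bile acid genes had 9 of 27 called higher and 0 lower. Cyp7b1, of the alternative pathway of bile acid synthesis and more abundant in male liver, averaged 62.6 ± 27.3 CPM in Uro and 5.51 ± 4.68 CPM in HFD livers, and 33 ± 12.8 CPM in UB and 45.3 ± 24.8 CPM in MC livers, with a difference of 3.96 ± 0.82 (edgeR adjusted p = 0.00323). Slc10a1, the uptake carrier for bile acids, had a difference of 2.68 ± 0.34 (edgeR adjusted p = 2.16e-05). Cyp7a1, the rate-limiting enzyme of the classic pathway, was not called at -0.25 ± 0.58 (edgeR adjusted p = 0.818).

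Drug metabolism followed. Of 39 cytochrome P450 genes, 17 were called higher and 0 lower, and 12 without HFD replicate 1. Cyp2e1, which oxidises ethanol in pericentral hepatocytes, had 5577, 7011, 6587, 5517 and 8239 CPM in Uro libraries, against 563, 1553, 652, 522 and 584 CPM in HFD libraries. It had 3162, 2287, 2231, 4071 and 4076 CPM in UB libraries, against 3694, 2376, 4804, 3999 and 1127 CPM in MC libraries. Uro lay above HFD in all libraries and UB overlapped MC, and the difference was 3.10 ± 0.47 (edgeR adjusted p = 7.02e-05). Cyp2c29, a constitutive androstane receptor target, had 3.27 ± 0.57 (edgeR adjusted p = 0.000625), and Cyp1a2, an aryl hydrocarbon receptor target, 2.33 ± 0.49 (edgeR adjusted p = 0.00225). Conjugation enzymes had 13 of 38 called higher and 1 lower. The list of NRF2 pathway genes and antioxidant enzymes had 13 of 30 higher and 0 lower. Gpx1, a peroxide-removing selenoprotein, had 2.41 ± 0.40 (edgeR adjusted p = 0.000143), and Gstm2, a glutathione transferase, 1.92 ± 0.27 (edgeR adjusted p = 4.70e-05). Ugt1a6b had 2.73 ± 0.35, but the Ugt1a genes share exons and are uncertain.

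Zonation lists differed from each other in their counts: 9 of 16 pericentral genes were called higher and 0 lower, while of 16 periportal genes 1 was higher and 2 lower. The periportal calls were 0 higher and 1 lower without Uro replicate 3 or without UB replicate 2, 2 higher and 3 lower without MC replicate 5, and 2 higher and 0 lower on log2(TPM + 1), and DESeq2 called 5 in all. Of 25 genes of growth hormone action and sex-biased expression, 13 were called higher and 1, Cux2, lower. Igfbp2, an insulin-like growth factor carrier, averaged 627 ± 244 CPM in Uro and 121 ± 68.1 CPM in HFD livers, and 224 ± 68.6 CPM in UB and 309 ± 167 CPM in MC livers, with a difference of 2.84 ± 0.51 (edgeR adjusted p = 0.000613). Major urinary proteins, pheromone carriers made in liver, had 17 of 20 called higher and 0 lower, with a median of 2.31 for Uro over HFD and -1.34 for UB over MC. Mup18 averaged 1888 ± 501 CPM in Uro and 147 ± 83.2 CPM in HFD livers, and 1298 ± 505 CPM in UB and 2068 ± 1216 CPM in MC livers, with a difference of 4.35 ± 0.59 (edgeR adjusted p = 5.57e-05), and Mup20, the most distinct of the family in sequence, 1.93 ± 0.53 (edgeR adjusted p = 0.0124). Mup15 had the largest positive difference of the family, 6.85 ± 1.62 (edgeR adjusted p = 0.00768), and 10 of the 12 most positive called differences of characterised genes with at least 5 CPM in a group were Mup genes; the others were Cyp7b1 and Ndufb4b. The Mup genes are near-identical, so the count of members is not a count of independent genes. It was 11 to 19 when 1 library was left out, lowest without MC replicate 2. MC replicate 5 stood apart, with 12450 CPM summed over the family, against 74360 to 118100 CPM in the other MC libraries. Without it, 18 members were called higher.

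Secreted proteins of hepatocytes had 18 of 38 complement and coagulation genes called higher and 0 lower, and 8 of 27 acute phase genes higher and 1, Il1rn, lower. Without UB replicate 3, 13 acute phase genes were called higher and 1 lower. C8g, of the terminal complement complex, had a difference of 2.23 ± 0.30 (edgeR adjusted p = 3.46e-05). Apcs, serum amyloid P, had 2.17 ± 0.33 (edgeR adjusted p = 7.84e-05). Saa1, which inflammation induces most, was higher in Uro over HFD at 2.91 ± 0.65, but its difference of 2.33 ± 0.87 was not called (edgeR adjusted p = 0.0782).

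Of 30 genes of the unfolded protein response, 11 were called higher and 0 lower, among them the chaperones Hspa5 and Hsp90b1 and the disulfide isomerase Pdia6. Hspa5 averaged 101 ± 19 CPM in Uro and 51.3 ± 17 CPM in HFD livers, and 93.4 ± 40.1 CPM in UB and 124 ± 36 CPM in MC livers, with a difference of 1.38 ± 0.38 (edgeR adjusted p = 0.0143). Pdia6 averaged 38 ± 3.81 CPM in Uro and 18.5 ± 3.24 CPM in HFD livers, and 24.7 ± 7.17 CPM in UB and 33.1 ± 8.61 CPM in MC livers, with 1.47 ± 0.28 (edgeR adjusted p = 0.000556). Hsp90b1 had 1.25 ± 0.33 (edgeR adjusted p = 0.0089). These means show HFD as the lowest of the 4 groups in each of Hspa5 and Pdia6. The endoplasmic reticulum stress element, CCAAT, any 9 bases and CCACG, searched on both strands, was in 8 of 27 list members with an entry, against 0.13% of 27025 genes, and in 5 of 9 members called higher. The upstream 250 bases of 2 of them (RefSeq, GRCm38.p6) are given with the element in capitals, at chr2:34771840-34772089 (plus strand) for Hspa5 and chr12:17266339-17266588 (plus strand) for Pdia6.
Hspa5: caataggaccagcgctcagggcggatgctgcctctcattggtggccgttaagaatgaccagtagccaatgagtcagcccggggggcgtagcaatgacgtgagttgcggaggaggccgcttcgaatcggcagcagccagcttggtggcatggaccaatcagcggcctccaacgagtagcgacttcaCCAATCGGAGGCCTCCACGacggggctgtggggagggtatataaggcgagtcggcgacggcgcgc
Pdia6: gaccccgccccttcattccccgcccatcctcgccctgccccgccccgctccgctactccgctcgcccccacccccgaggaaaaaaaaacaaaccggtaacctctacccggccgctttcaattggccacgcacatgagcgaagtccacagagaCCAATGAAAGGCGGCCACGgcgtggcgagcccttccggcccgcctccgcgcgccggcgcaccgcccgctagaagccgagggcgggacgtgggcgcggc

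Markers of cell types place these changes beside the makeup of the tissue. Of 19 hepatocyte markers, 7 were called higher and 0 lower, including Ttr at 2.85 ± 0.42 (edgeR adjusted p = 5.07e-05) and Asgr1 at 1.92 ± 0.28 (edgeR adjusted p = 5.07e-05). Their summed CPM was 38830 to 61110 CPM in Uro, 17430 to 31460 CPM in HFD, 18290 to 31190 CPM in UB and 26970 to 50410 CPM in MC libraries. Sinusoidal endothelial markers had 3 of 20 called higher and 0 lower, fibrosis genes 1 of 26 higher and 0 lower, and cholangiocyte markers 0 of 10 (edgeR, 0 also at an unadjusted p under 0.05, and 0 with DESeq2). Of all tested genes, 11.7% were called higher and 5.1% lower. Of 6 adipocyte markers tested, Pck1 and Adrb3 were called lower (the count was 1 in 11 of the 20 fits without 1 library), and the defining markers Adipoq and Plin1 did not pass the filter on low counts. The endothelial count was 1 when any 1 of Uro replicate 4, HFD replicates 1 and 5, UB replicate 4, and MC replicates 1 and 3 was left out, and the fibrosis count was 1 higher and 2 lower without MC replicate 5. The part of cell makeup in the results was not tested.

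Genes outside these lists were among the most negative differences. Ulk4, a kinase-like gene, averaged 0.286 ± 0.255 CPM in Uro and 15.9 ± 4.76 CPM in HFD livers, and 4.92 ± 3.45 CPM in UB and 6.04 ± 6.05 CPM in MC livers, with the largest negative difference among called genes of characterised function with at least 5 CPM in a group, at -5.45 ± 1.07 (edgeR adjusted p = 0.00217). Adam33, a membrane metalloprotease, had -2.79 ± 0.73 (edgeR adjusted p = 0.011), Sap25, of the SIN3 corepressor, -2.65 ± 0.54 (edgeR adjusted p = 0.00113), and Kcne3, a potassium channel subunit, -2.84 ± 0.86 (edgeR adjusted p = 0.0283). The call of Kcne3 was lost without UB replicate 4 or without MC replicate 4. Among 18 glucocorticoid-responsive genes, Klf9 was called lower, Pdk4 was called higher and 16 were not called. Against this, 5.1% of all genes were called lower and 11.7% higher. Klf9, a glucocorticoid-induced transcription factor, averaged 35.7 ± 15.3 CPM in Uro and 136 ± 15.3 CPM in HFD livers, and 59.3 ± 10.5 CPM in UB and 64.2 ± 15.9 CPM in MC livers, with -1.81 ± 0.33 (edgeR adjusted p = 0.000352). Of 9 long noncoding RNAs, several of them kept in the nucleus, Neat1, Malat1 and Kcnq1ot1 were called lower and the other 6 were not called, and on log2(TPM + 1) 0 were called lower.

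Neat1, the scaffold of paraspeckles, had 118, 133, 67.2, 181 and 122.8 CPM in Uro libraries, against 525, 857, 332, 377 and 422 CPM in HFD libraries. It had 183, 649.6, 172, 536 and 240.1 CPM in UB libraries, against 557, 241, 237, 366 and 316 CPM in MC libraries. Every Uro library was below every HFD library, and UB overlapped MC. The difference was -2.06 ± 0.53 (edgeR adjusted p = 0.0093), and it was -1.21 ± 0.37 (edgeR adjusted p = 0.0248) for Malat1 and -2.34 ± 0.57 (edgeR adjusted p = 0.00633) for Kcnq1ot1. The call of Malat1 was lost in 4 of the 20 fits that left out 1 library. Among all lncRNAs, 59 of 1132 were called lower and 25 higher, and among unannotated TEC loci 24 of 199 were lower and 2 higher. Of all tested genes, 5.1% were called lower and 11.7% higher, so the share of lncRNAs called lower was close to that of all genes.

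Genes with the same response in both studies mark where the studies did not differ beyond the error. Of the 67 genes called in both studies in the same direction, 64 were not called for the difference. Acot3, a peroxisomal thioesterase and PPARA target, had 59.9, 50.1, 31.8, 31.1 and 68.1 CPM in Uro libraries, against 2.4, 4.4, 2.78, 3.76 and 11.4 CPM in HFD libraries. In the prevention study it had 37, 32.9, 28.2, 26.5 and 50.8 CPM in UB libraries, against 7.05, 9.22, 5.45, 9.99 and 4.7 CPM in MC libraries. Treated libraries were above untreated libraries in both studies, and the difference, 0.98 ± 0.49, was not called (edgeR adjusted p = 0.187). Cldn1, a tight junction protein, was lower in both, at -1.60 ± 0.29 and -2.28 ± 0.30, with a difference of 0.68 ± 0.40 (edgeR adjusted p = 0.269). Usp2, a clock-controlled deubiquitinase, and Stard4, a cholesterol carrier, were higher in both, with differences of -0.33 ± 0.43 (edgeR adjusted p = 0.664) and -0.044 ± 0.35 (edgeR adjusted p = 0.955). Hmgcs1, an early enzyme of cholesterol synthesis, was lower in both, with a difference of -0.42 ± 0.30 (edgeR adjusted p = 0.371). A missed threshold does not show that the effects were equal.

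In 3 genes the effects had the same direction and still differed in size. Coq10b, a coenzyme Q binding protein, had 35.5, 24.6, 23.9, 26.2 and 29.3 CPM in Uro libraries, against 14.8, 20.8, 25.7, 14.9 and 17.9 CPM in HFD libraries. It had 35.3, 49, 35.8, 39.7 and 35.7 CPM in UB libraries, against 10.8, 13.6, 12.6, 16.6 and 13.8 CPM in MC libraries. UB was above MC without overlap, and Uro overlapped HFD. The fold change was 0.56 ± 0.17 for Uro over HFD and 1.54 ± 0.18 for UB over MC, with a difference of -0.97 ± 0.25 (edgeR adjusted p = 0.0064). Fdft1, squalene synthase, was higher in both and more so in obese mice, at 0.91 ± 0.25 (edgeR adjusted p = 0.012). Chaserr, a long noncoding RNA beside Chd2, was lower in both and more so in obese mice, at -0.99 ± 0.29 (edgeR adjusted p = 0.0187).

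Some further genes of lipid handling and inflammation were not called. Fgf21, a hepatokine induced by PPARA, averaged 22.6 ± 11.2 CPM in Uro and 9.48 ± 3.09 CPM in HFD livers, and 6.43 ± 6.42 CPM in UB and 17.4 ± 15.1 CPM in MC livers, and its difference of 2.68 ± 0.94 missed the threshold (edgeR adjusted p = 0.0624). Lcn2, an acute phase protein, and Trem2, of lipid-associated macrophages, were at 0.66 ± 0.76 and 0.40 ± 0.77, with SEs as large as or larger than the differences.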

How the data were processed

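Sequencing was paired-end from stranded libraries of poly(A) RNA, per the labels' protocols. Tools named in the submitters' processing notes are fastp, HISAT2, StringTie and DESeq2, with the build GRCm39. Versions are not given in the sources used here, nor how reads shared by paralogs or opposite strands were counted. The authors deposited expected counts (estimated reads per gene, not scaled) and TPM (length-scaled) tables. Counts were rounded, since 4.69% to 7.03% of the genes of a library had fractional values.

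Counts of the 20 libraries were tested in R 4.3.3 with edgeR 4.0.16 (filterByExpr by group, TMM, robust quasi-likelihood fit of group means, two-sided F-test), with Benjamini-Hochberg adjustment over 14538 genes and a threshold of 0.05. CPM are on TMM-scaled library sizes, with mean ± SD over 5 libraries. The SE was taken from the F statistic (absolute log2 value over the root of F). CPM is not per length, so levels are not compared between genes. Nuclear copies of mitochondrial genes had at least 80% identity over at least 50% of their length (BLAST+ 2.17.0). Coordinates are from GENCODE M39 (56620 of 57180 IDs matched). Alternatives used DESeq2 1.42.0, limma 3.58.1 and a pseudocount of 1 for TPM. On simulated data with 200 genes changed between the studies, 99 of 100 genes with a log2 difference of 2 and 26 of 100 with 1 were called, with 14 false calls among unchanged genes. Simulated counts were independent, with no factor shared across a library such as the mitochondrial share, and the changed genes averaged at least 5 CPM. These rates therefore may not hold for the real libraries. Of 40 within-group pairs of libraries, 0 were identical. The groups NC and NFD were not used, except in the alternative with all 30 libraries.

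Named genes are the 12 largest called differences in each direction with a symbol of a characterised gene and a mean of at least 5 CPM in a group, up to 3 called members per list, a list of genes of interest, 8 opposed and 6 shared genes. Some of these are counted but not named in the text, and some genes are not reported here. Added after their values were seen were Oas3, Ifit1, Stat2, Ifi27, Per2, Usp2, Elovl3, Selenbp2, Klhdc8b, Apbb3, Cd81, Adtrp, Mup20, Hspa5, Hsp90b1, Fdft1, Stard4, Hmgcs1 and Chaserr. The members and the 51 lists were chosen with earlier results of these data known.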

Additional observations from a re-analysis of the deposited data

Results flagged for a closer look

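The following 2 results concern the difference between the studies. For the first, edgeR tested the difference itself, and for the second, the permutation test had no effect in either study as its null. These are the 2441 genes called for Uro over HFD minus UB over MC, and the mitochondrial share, at -41.41 percentage points for the same difference. A sample far from the others of its group was looked for in 444 groups of 5 values and in library measures, and 41 values were found. Chance gives about 1 in 20 groups.

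UB replicate 3 was highest of its group for the interferon genes Ifit1 (74.61 CPM, against 13.96 to 20.89 in the other UB libraries), Stat2 (90.54 CPM), Ifi27 (104.0 CPM), Gbp4 (29.38 CPM), Gbp8 (13.79 CPM) and Tgtp2 (57.54 CPM) and for the acute phase gene Saa1 (150.9 CPM). Zbp1, which was not among the genes searched, also had 94.47 CPM in UB replicate 3, against 6.182 to 21.9 CPM in the other UB libraries. Oas3 was highest in HFD replicate 4 (12.5 CPM).

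HFD replicate 2 was highest of its group for Cyp7b1 (13.61 CPM), Slc10a1 (40.13 CPM), Cyp2e1 (1553 CPM), Igfbp2 (239.1 CPM) and Cyp4a14 (190.9 CPM), all genes called higher for the difference between the studies. HFD replicate 1, which had the fewest non-mitochondrial counts, was highest for Sap25 (15.3 CPM), Ppargc1a (10.17 CPM) and Kcnq1ot1 (17.82 CPM) and lowest for Hmgcs1 (62.7 CPM). Its total of 17.72 M counts was the lowest of its group. Acot3 was highest in HFD replicate 5 (11.45 CPM), and Usp2 lowest in HFD replicate 4 (8.803 CPM).

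In Uro livers, replicate 1 was highest for Mup20 (22280 CPM) and lowest for Pdk4 (4.882 CPM), replicate 2 highest for Sap25 (2.088 CPM), Saa1 (351.7 CPM) and Elovl3 (74.55 CPM), replicate 3 highest for Acaca (40.09 CPM), and replicate 4 lowest for Atp5mc3 (326.8 CPM). In UB livers, replicate 1 was highest for mt-Cytb (55040 CPM) and for the mitochondrial share (51.98%), replicate 2 for Kcnq1ot1 (15.71 CPM), replicate 4 for Kcne3 (7.722 CPM) and Adam33 (7.428 CPM), and replicate 5 for Cyp1a2 (184.7 CPM). In MC livers, replicate 3 was highest for Igfbp2 (599.1 CPM), Ttr (3642 CPM) and Apoa1 (11480 CPM), replicate 2 for Ulk4 (16.44 CPM) and Malat1 (228.8 CPM), and replicate 5 for Ciart (0.7423 CPM), Lcn2 (20.95 CPM) and Trem2 (15.01 CPM).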

How the results depend on the processing

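The 2441 calls for the difference became 0 with the mitochondrial share as a covariate and 35 with the replicate block and the share together, and the 4431 calls of Uro over HFD became 0 and 86. On log2(TPM + 1), Uro over HFD had 8109 calls, of which 7949 were higher, with a median of 0.529 over all genes. UB over MC had 334 calls with DESeq2, 103 with all 30 libraries and 82 with each study fitted on its own, against 155. Leaving out 1 library at a time gave 1895 to 2899 calls for the difference (lowest without MC replicate 3), 3749 to 4667 for Uro over HFD, and 81 to 190 for UB over MC (lowest without UB replicate 3). The other settings (DESeq2, RLE, other filters, limma, thinned counts, mitochondrial genes removed, without the highest-share library of each group) gave 2080 to 2792 calls for the difference, apart from 1818 with all 30 libraries. The replicate block gave 2467 calls for the difference. Same-numbered libraries were not shown to pair, with correlations of deviations from -0.241 to 0.312 in 30 pairs and 14 over 0.1, so the pairing rests on numbers alone. Direction reversed for mt-Cytb with the share as a covariate (0.0408), where the covariate contains the gene, for Ppara (2.379) and Per2 (0.2103) on log2(TPM + 1), and for Mup15 (-0.9819), Oas3 (0.4278) and Hsp90b1 (-0.1951) with the block and the share, where the cause was not tested. Of 85 called genes followed through these settings, 79 stayed called in all 20 fits without 1 library. Called genes given by name only, such as Zbp1, Ifit3b, Nfkbiz, Pck1 and Ndufb4b, were not among the 85. Depth outside mitochondrial genes, 3.14 M counts at the lowest, limits HFD livers most.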

Other observations

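Of 26 autophagy and lysosome genes 6 were called higher and 0 lower, and of 28 mitochondrial stress genes 7 and 0. The mitochondrial stress count was 4 when any 1 of HFD replicate 5, UB replicates 1 and 3, and MC replicates 3 and 4 was left out. Lamp1, the major lysosomal membrane glycoprotein, averaged 268 ± 24.5 CPM in Uro and 99.4 ± 28 CPM in HFD livers, and 137 ± 25.4 CPM in UB and 156 ± 44.6 CPM in MC livers (SD, n = 5 each), with a difference of 1.62 ± 0.28 (edgeR adjusted p = 0.000248). Of 13 ubiquinone genes, Coq6, Coq7 and Coq8a were called higher and Coq10b lower.

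Of 42 urea cycle and amino acid genes, 7 were called higher and 0 lower, and leaving out 1 library gave 5 to 15, the highest without HFD replicate 2 and the next, 11, without MC replicate 5. Against 11.7% of all genes called higher, tight junction genes had 3 of 14, heat shock genes 3 of 20, metal handling genes 2 of 18 and MHC genes 2 of 19, with 2 MHC genes lower. The tight junction count was 5 without HFD replicate 5 or without UB replicate 4, and the heat shock count was 1 when any 1 of Uro replicate 3, HFD replicate 5, and UB replicates 4 and 5 was left out. Of 22 immediate early genes, 0 were called (edgeR, 0 also at an unadjusted p under 0.05, and 0 with DESeq2), and of 23 cell cycle genes 1, Mki67, was called lower (edgeR), with a count of 2 without Uro replicate 2, HFD replicate 3 or UB replicate 1.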
